A study of Mus musculus with 40 samples.

Results

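The antigen presentation genes described here are 10 rows of a gene count table from mouse cortex: the class I heavy chains H2-K1, H2-D1, H2-Q4, H2-Q6, H2-Q7, H2-T23 and H2-M3, the light chain B2m, and the peptide transporter subunits Tap1 and Tap2. They were chosen by gene symbol. All 10 were found among the 43346 genes listed, and all 10 were among the 21253 genes that passed the filter on low counts (at least 10 counts in at least 4 libraries).

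MHC class I molecules hold short peptides from inside the cell at the cell surface, where CD8+ T cells and natural killer cells read them. A heavy chain folds with B2m in the endoplasmic reticulum, and the transporter formed by Tap1 and Tap2 brings in the peptides that the proteasome has made. H2-K1 and H2-D1 encode the classical, highly polymorphic heavy chains of the mouse. H2-Q4, H2-Q6, H2-Q7, H2-T23 and H2-M3 encode nonclassical ones, of which H2-T23 presents peptides cut from the leaders of other class I chains and H2-M3 presents formylated peptides. The pathway is switched on by interferons, in part through the transactivator Nlrc5, and in the brain microglia and endothelial cells carry more of it than neurons do at rest.

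Cortical RNA of 40 mice was sequenced after poly-A enrichment, 1 library per mouse, to ask how the Trem2 H157Y change affects the transcriptome with and without amyloid. Each of the 4 groups held 10 mice, 5 females and 5 males. The 2 amyloid groups carried the 5xFAD transgenes, which express mutant human amyloid precursor protein and presenilin under a neuronal promoter, and were 8.5 months old. The 2 non-amyloid groups lacked these transgenes and were 6 months old. Within each cohort, WT mice had 2 unedited Trem2 alleles and Hom mice had H157Y on both, made by genome editing in zygotes of mixed strain background and, unless the study stated otherwise, carried on from a single founder. Transgenes and age differ together between the cohorts and cannot be told apart here. Het mice were not analysed here.

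Total counts ran from 41646271 to 105903846 per library. The amyloid Hom female numbered 19 in the labels had the lowest total, and 0.660% of its counts lay on genes annotated as antisense, against 0.0857% to 0.107% in the other 39 libraries. Levels are given in CPM, a gene's share of the library's normalised total on a scale common to all libraries. Trem2 itself, whose counts do not show the allele, stood at 10.7 ± 2.13 CPM (SD, n = 10) in non-amyloid WT, 10.41 ± 1.59 in non-amyloid Hom, 62.2 ± 24.4 in amyloid WT and 33.9 ± 10.27 in amyloid Hom mice. The study excluded an amyloid Hom female for a low gene count percentage and its strand check, without saying which. Mouse 19, with the lowest total and the high antisense share, may be that mouse, which was not tested. All 10 were kept here. Among the amyloid WT mice, the females numbered 32 and 12 stood apart: mouse 32 was the highest and mouse 12 the second highest of that group for all 10 genes. Values without mouse 32 are given below for the 10 genes, and were not taken for the other gene lists. The summed level of 9 neuron markers lay between 10860 and 13530 CPM in every library, which does not tell cortex from other brain regions.

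In WT mice all 10 genes were higher with amyloid, by 1.36-fold for H2-M3 to 2.89-fold for H2-Q7, and all 10 passed the test. In Hom mice only B2m passed it, with a rise of 1.75-fold, and the rise of the other 9 was 1.08-fold to 1.49-fold without passing. By their means, the Hom mice of the amyloid cohort lay between the non-amyloid mice of either genotype and the amyloid WT mice for all 10 genes. Neither the direct comparison of Hom with WT nor the test of whether genotype acts differently in the 2 cohorts called any of the 10. In bulk tissue fewer cells of a type and less RNA per cell cannot be told apart.

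Of the 10 genes, 9 lie on chromosome 17 in the mm10 assembly, the chromosome of Trem2, whose gene runs from 48346401 to 48354147. H2-K1 (ENSMUSG00000061232, 33996017 to 34000333) is the farthest from it, with starts 14.4 Mb apart, and H2-M3 (ENSMUSG00000016206, 37270220 to 37274484) the nearest at 11.1 Mb. Tap1 (ENSMUSG00000037321, 34187553 to 34197225) and Tap2 (ENSMUSG00000024339, 34203527 to 34216321) follow H2-K1. Then come H2-D1 (ENSMUSG00000073411, 35262730 to 35267499), H2-Q4 (ENSMUSG00000035929, 35379617 to 35385290), H2-Q6 (ENSMUSG00000073409, 35424850 to 35430055), H2-Q7 (ENSMUSG00000060550, 35439155 to 35443773) and H2-T23 (ENSMUSG00000067212, 36029773 to 36032855). B2m (ENSMUSG00000060802) lies on chromosome 2, from 122147686 to 122153083.

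RefSeq promoter windows (GRCm38.p6, 250 bases before to 50 after each start) were found for 9 of the 10 genes, and Tap2 had no entry. The 10 genes were all called higher with amyloid in WT mice, so the upstream stretches of 4 of them are shown, 5′ to 3′ on the gene's own strand and ending before the transcribed part. Capitals mark matches to the kB letters GGGATTCCC, to the class I interferon response letters TTTCACTTC, to the interferon-stimulated response letters GAAANNGAA, and to CCAAT, each searched on both strands.
B2m, chr2:122147487-122147685, plus strand: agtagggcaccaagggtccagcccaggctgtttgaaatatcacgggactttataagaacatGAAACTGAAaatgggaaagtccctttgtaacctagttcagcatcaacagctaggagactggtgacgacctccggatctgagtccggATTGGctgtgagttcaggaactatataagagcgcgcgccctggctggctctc
H2-K1, chr17:34000348-34000547, minus strand: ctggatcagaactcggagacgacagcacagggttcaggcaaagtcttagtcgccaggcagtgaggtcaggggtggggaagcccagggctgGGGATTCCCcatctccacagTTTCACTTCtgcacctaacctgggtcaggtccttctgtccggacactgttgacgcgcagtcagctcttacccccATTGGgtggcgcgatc
H2-Q4, chr17:35379417-35379616, plus strand: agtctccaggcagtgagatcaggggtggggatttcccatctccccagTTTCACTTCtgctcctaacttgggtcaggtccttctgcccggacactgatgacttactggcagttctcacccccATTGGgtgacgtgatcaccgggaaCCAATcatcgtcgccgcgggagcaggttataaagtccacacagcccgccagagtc
H2-M3, chr17:37270034-37270219, plus strand: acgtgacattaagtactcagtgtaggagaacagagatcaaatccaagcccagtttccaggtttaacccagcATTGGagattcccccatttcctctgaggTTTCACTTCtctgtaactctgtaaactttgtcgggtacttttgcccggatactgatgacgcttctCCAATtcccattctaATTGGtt

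The class I interferon response letters were found for 6 of the 9 genes (H2-K1, H2-D1, H2-Q4, H2-Q6, H2-Q7 and H2-M3), against 0.505% of all 32851 promoter windows. H2-K1 has more than 1 window, and these counts are of genes with a match in any window, set beside shares of windows. The kB letters were found in 4 (H2-K1, H2-D1, H2-Q6 and H2-Q7), against 0.353% of all windows. H2-T23 and B2m held the GAAANNGAA letters, which 8.56% of all windows hold, and all 9 held CCAAT, as did 37.4% of all windows. TGACG, the core of the cyclic AMP response element, was found for 7 of the 9 genes, against 20.8% of all windows. None of the interferon or kB letters lay in the Tap1 window. Several of these heavy chains arose by duplication and share upstream sequence, so the windows are not independent of each other. A match of letters is a description and does not show that a factor binds.

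Levels differed widely between the genes. Per kilobase of exon, in non-amyloid WT mice, B2m was the highest with a mean of 101.4 CPM per kb, followed by H2-D1 at 10.16, H2-K1 at 6.33, H2-T23 at 4.16 and H2-M3 at 2.78. Tap2 stood at 1.24 CPM per kb, H2-Q4 at 0.968, Tap1 at 0.386, H2-Q6 at 0.312 and H2-Q7 at 0.0721. The ranges over the 10 mice overlapped between H2-D1 and H2-K1, H2-T23 and H2-M3, Tap2 and H2-Q4, Tap1 and H2-Q6, and H2-Q6 and H2-Q7, and not between the other neighbours in this order. Within each mouse H2-D1 exceeded H2-K1 in 10 of 10, whereas Tap2 exceeded H2-Q4 in 8 of 10. The levels of near-identical heavy chains depend on how reads were divided between them. Of 100-base windows of its transcripts, H2-Q7 shared 12% with other genes and H2-Q6 10.8%, and their values are uncertain. The share was at most 3.59% in the other heavy chains and 0 in H2-M3, B2m, Tap1 and Tap2. H2-Q4 overlaps the exons of an opposite-strand gene over 19.1% of its exonic bases, Tap2 overlaps a pair of such genes over 14.1% and 4.36%, and Tap1 overlaps Psmb9 over 3.87%. The strand setting of the counting is not given in the sources used here, so these counts carry that uncertainty too.

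**Figure D1:**
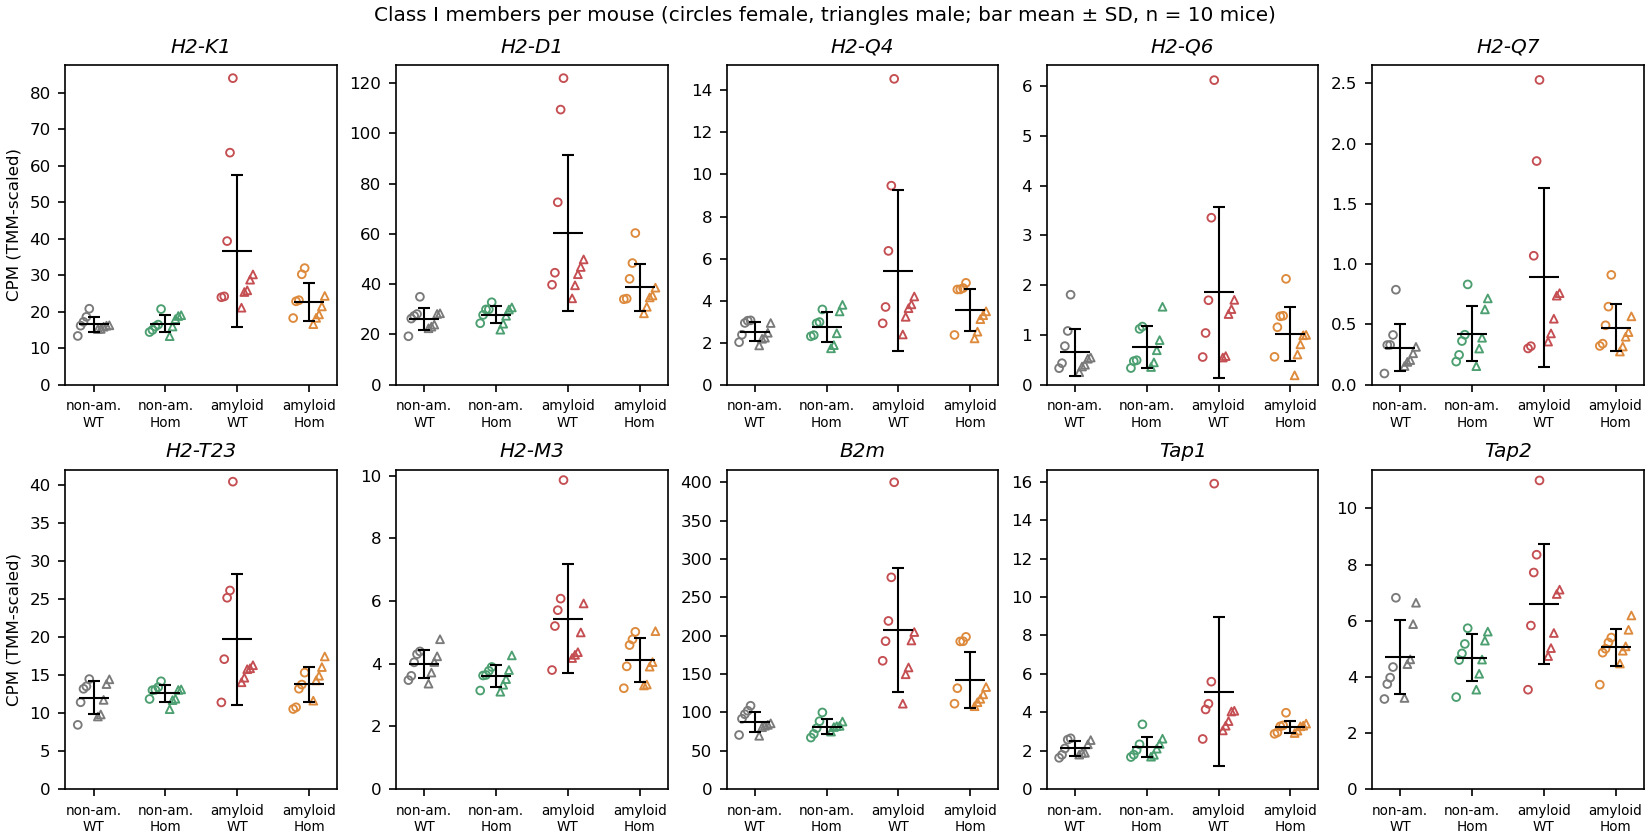
CPM of each of the 10 genes (vertical axes, each from 0) in the 4 groups, with females as circles, males as triangles and bars for the mean ± SD of 10 mice. Mouse 32 is the highest amyloid WT point in every panel, and the B2m values of both amyloid groups lie above all values of the non-amyloid group of the same genotype.

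B2m, the light chain that every class I heavy chain here needs, had the clearest difference between the cohorts. In non-amyloid WT mice its level ran from 69.4 CPM over a median of 84.7 to 108.6, and in amyloid WT mice from 111.3 over 193.3 to 400.3. In Hom mice it ran from 67.1 over 81.4 to 99.9 CPM without amyloid and from 108.0 over 127.5 to 198.5 with it. All 10 amyloid mice lay above all 10 non-amyloid mice in each genotype, and the ranges of the amyloid WT and Hom mice overlapped. The mean was 207 ± 81.0 CPM (SD, n = 10) in amyloid WT and 87.2 ± 12.9 in non-amyloid WT mice, which is 1.25 higher on the log2 scale (standard error 0.15, adjusted p = 1.61e-08). The amyloid Hom mean of 142 ± 37.1 CPM against 81.5 ± 9.31 gave 0.80 (standard error 0.15, adjusted p = 2.09e-04). Unless another tool is named, adjusted p-values are those of edgeR (quasi-likelihood test), after Benjamini and Hochberg, over all genes tested.

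H2-K1 ran from 13.4 CPM over a median of 16.2 to 20.8 in non-amyloid WT mice and from 21.1 over 27.3 to 84.0 in amyloid WT mice. Its groups of WT mice did not overlap. In Hom mice it ran from 13.3 over 16.2 to 20.7 CPM without amyloid and from 16.6 over 22.1 to 31.9 with it, so that these groups did overlap. The log2 fold change with amyloid was 1.15 in WT mice (standard error 0.18, adjusted p = 3.99e-06) and 0.43 in Hom mice (standard error 0.18, adjusted p = 0.128).

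H2-D1, the other classical heavy chain, ran from 19.3 CPM over 26.8 to 34.96 in non-amyloid WT mice and from 34.4 over 45.7 to 121.9 in amyloid WT mice. There 9 of the 10 amyloid WT mice lay above every non-amyloid WT mouse. In Hom mice H2-D1 ran from 21.9 over 28.8 to 32.8 CPM without amyloid and from 28.4 over 35.1 to 60.3 with it, and 8 of the 10 amyloid mice lay above the others. The log2 fold change was 1.20 in WT (standard error 0.17, adjusted p = 1.13e-06) and 0.47 in Hom mice (standard error 0.17, adjusted p = 0.0847).

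Among the nonclassical heavy chains, H2-T23 had the highest level. It ran from 8.44 CPM over 12.5 to 14.5 in non-amyloid WT mice and from 11.4 over 16.1 to 40.4 in amyloid WT mice, where 8 of 10 lay above every non-amyloid WT mouse. In Hom mice it ran from 10.5 over 13.02 to 14.2 CPM without amyloid and from 10.5 over 14.01 to 17.4 with it. The Hom groups overlapped, with 5 of the 10 amyloid mice above the highest without amyloid. The log2 fold change was 0.71 in WT (standard error 0.15, adjusted p = 5.45e-04) and 0.13 in Hom mice (standard error 0.15, adjusted p = 0.604).

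H2-M3, which sits nearest to Trem2 of the 9, went from 3.996 ± 0.451 to 5.44 ± 1.74 CPM in WT mice (log2 fold change 0.45, adjusted p = 0.00891) and stood at 3.61 ± 0.355 and 4.11 ± 0.706 CPM in Hom mice (0.19, adjusted p = 0.332). H2-Q4 went from 2.51 ± 0.448 to 5.43 ± 3.82 CPM in WT mice (1.11, adjusted p = 6.38e-04), with 2.75 ± 0.719 and 3.55 ± 1.01 CPM in Hom mice (0.37, adjusted p = 0.342). H2-Q6 and H2-Q7 had the lowest levels. H2-Q6 had 13 to 450 counts per library and H2-Q7 had 7 to 186, and their log2 fold changes in WT mice were 1.51 and 1.53 with standard errors of 0.41 and 0.37 (adjusted p = 0.0103 and 0.00318). In Hom mice they were 0.42 and 0.15 (adjusted p = 0.542 and 0.831).

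Tap1 and Tap2, which form the peptide transporter together, differed in size of change. Tap1 ran from 1.62 CPM over 1.998 to 2.64 in non-amyloid WT mice and from 2.61 over 4.06 to 15.9 in amyloid WT mice, and the second highest amyloid WT mouse stood at 5.59. In Hom mice Tap1 ran from 1.66 over 2.06 to 3.37 CPM without amyloid and from 2.87 over 3.26 to 3.97 with it. Its log2 fold change was 1.26 in WT (standard error 0.21, adjusted p = 1.37e-05) and 0.57 in Hom mice (standard error 0.21, adjusted p = 0.0806). Tap2 went from 4.69 ± 1.32 to 6.58 ± 2.14 CPM in WT mice (0.49, standard error 0.15, adjusted p = 0.0302), and 5 of the 10 amyloid WT mice lay above the highest without amyloid. In Hom mice Tap2 stood at 4.68 ± 0.831 and 5.05 ± 0.666 CPM (0.11, adjusted p = 0.684).

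Over the 10 genes, 10 of 10 were called higher with amyloid in WT mice (a call needs a log2 fold change beyond 0.25 either way besides an adjusted p under 0.05), where 6.62% of all genes tested were. The median log2 fold change of the 10 was 1.18, and that of all genes was 0.002. Groups of WT mice that did not overlap, with amyloid higher, were found for 2 of the 10, B2m and H2-K1, and for 1.95% of all genes. Without mouse 32, 7 of the 10 were called, with a median of 0.88, and the calls of H2-Q6 (log2 fold change 1.06, adjusted p = 0.067), H2-M3 (0.29, adjusted p = 0.0514) and Tap2 (0.35, adjusted p = 0.124) were lost. Tap1 went from 1.26 to 0.85 and kept its call (adjusted p = 2.88e-06). The share of all genes called without mouse 32 is not given here, so a shift common to all genes cannot be told apart. Tap2 also lost its call without any of WT mice 5, 7, 12, 15, 17 and 38 (adjusted p up to 0.0705).

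In Hom mice 1 of the 10 was called higher with amyloid, B2m, where 5.71% of all genes were. The median log2 fold change was 0.40 beside 0.027 over all genes, and 4 of the 10 (B2m, Tap1, H2-D1 and H2-K1) had an unadjusted p under 0.05. That p was reached, in either direction, by 4794 of the 21253 genes tested. B2m was also the member of the 10 whose Hom groups did not overlap, as 0.875% of all genes did. The fit takes in all 40 mice, and leaving out the WT mouse 32 also changed this count, to 3. It added H2-D1 (adjusted p = 0.0493) and Tap1 (adjusted p = 0.00233), and the cause of this change was not tested. The share of all genes called in that fit is not given here. Without Hom mouse 11, Tap1 was called as well (log2 fold change 0.66, adjusted p = 0.0453).

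**Figure D2:**
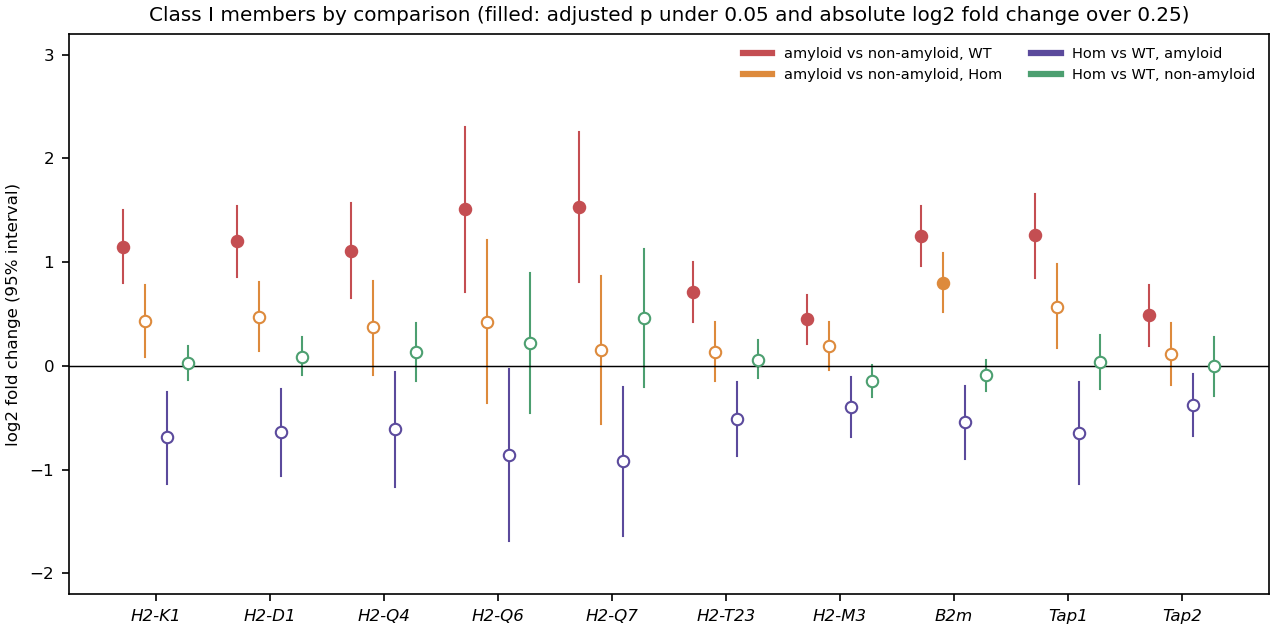
Log2 fold changes (vertical axis) of the 10 genes in 4 comparisons with their 95% intervals, filled where the call was made. The amyloid difference is filled for all 10 genes in WT mice and for B2m alone in Hom mice, and the Hom to WT difference lies below 0 for all 10 genes in the amyloid cohort without a filled point.

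Whether the amyloid difference itself depended on genotype was tested by an interaction term fitted on the 40 mice. The estimate was below 0 for all 10 genes, with a median of −0.70 (range −1.38 for H2-Q7 to −0.25 for H2-M3), and 0 of the 10 were called, as were 0% of all genes tested. The lowest adjusted p by edgeR was 0.266, for H2-D1 (−0.73, standard error 0.24). At an unadjusted p under 0.05 there were 7 of the 10, all but H2-Q6, H2-M3 and Tap2, where 5.54% of all genes had that p and a negative estimate. DESeq2 and limma-voom called 0 of the 10 as well, with 7 and 1 at an unadjusted p under 0.05. Without mouse 32 the median was −0.42 and 4 of the 10 had an unadjusted p under 0.05. This test shares its mice with the comparisons above and below, so its values are not further evidence beside theirs.

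Hom mice were next compared with WT mice within the amyloid cohort. All 10 genes had a lower mean in Hom mice, by 1.302-fold for Tap2 to 1.89-fold for H2-Q7, with a median log2 fold change of −0.63 beside 0.001 over all genes. Of the 10, 0 were called by edgeR, where 0.0518% of all genes were called lower, and 9 had an unadjusted p under 0.05, where 5.77% of all genes had that p and were lower. DESeq2 also called 0 of the 10 with 9 at an unadjusted p under 0.05, and limma-voom with sample weights called 0 with 4. A fit of all 40 libraries together called 4, H2-K1 (adjusted p = 0.0168), H2-D1 (0.0267), B2m (0.0269) and H2-T23 (0.0438), at the same fold changes, where 1.91% of all genes were called lower.

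For H2-K1, 4 amyloid Hom mice were under the lowest amyloid WT mouse, and the log2 fold change was −0.69 (95% interval −1.14 to −0.25, adjusted p = 0.197). H2-D1 also had 4 such mice, with a log2 fold change of −0.64 (−1.06 to −0.22, adjusted p = 0.228). H2-M3 had 3, H2-Q4 and H2-T23 had 2, H2-Q6, H2-Q7 and B2m had 1 and Tap1 and Tap2 had 0. B2m gave −0.54 (−0.90 to −0.19, adjusted p = 0.224) and Tap1 −0.65 (−1.14 to −0.16, adjusted p = 0.335). H2-Q6 was the gene of the 10 whose unadjusted p was over 0.05 (−0.86, p = 0.0535 by edgeR).

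The size of these differences rested in part on mouse 32. Without it the median log2 fold change was −0.36, H2-K1 gave −0.47 (adjusted p = 0.383), H2-Q6 −0.43 in place of −0.86, H2-Q4 −0.31 in place of −0.61 and Tap1 −0.25 in place of −0.65 (adjusted p = 0.518), and 6 of the 10 kept an unadjusted p under 0.05. Without Hom mouse 19, 10 of the 10 had an unadjusted p under 0.05 and 0 were called. With sex as a covariate 0 of the 10 were called, where 1.14% of all genes were called lower, all 10 had an unadjusted p under 0.05, and the lowest adjusted p was that of B2m (−0.53, adjusted p = 0.0841).

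In the non-amyloid cohort the Hom and WT ranges overlapped for all 10 genes. Hom mice had a median log2 fold change of 0.05 over the 10 genes, 7 above and 3 below 0, with 0 called where 0.0282% of all genes were called lower. By edgeR, DESeq2 and limma-voom alike, 0 of the 10 had an unadjusted p under 0.05, where edgeR gave 2.29% of all genes that p with a lower Hom mean. The estimate of H2-K1 was 0.03 (95% interval −0.14 to 0.19), that of H2-D1 0.09 (−0.09 to 0.28), that of B2m −0.09 (−0.24 to 0.06) and that of Tap1 0.04 (−0.22 to 0.30). By edgeR H2-M3 had the lowest unadjusted p of the 10, 0.0835, with −0.15 (−0.30 to 0.01). H2-Q6 (0.22, −0.45 to 0.89) and H2-Q7 (0.46, −0.20 to 1.13) had the widest intervals, each of which leaves a change in either direction possible at this depth.

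Since 9 of the 10 genes share a chromosome with the edited gene, the genotype difference was also taken over both cohorts and read against position. Over both cohorts 0 of the 10 were called by edgeR, DESeq2 or limma-voom, where edgeR called 0.132% of all genes lower. By edgeR 6 of the 10 had an unadjusted p under 0.05 (4.54% of all genes had that p and were lower), with H2-M3 at −0.28 (adjusted p = 0.171) and B2m, on chromosome 2, at −0.32 (adjusted p = 0.218). The median of the 10 was −0.27, and without mouse 32 it was −0.13 with 3 of the 10 at an unadjusted p under 0.05 and 0 called. Between the outermost of the 7 H2 genes lie 156 genes tested, starting 11.1 to 14.4 Mb from Trem2, and 0 of them were called by edgeR in either cohort or over both. At an unadjusted p under 0.05 there were 30 in the amyloid cohort, 7 in the non-amyloid cohort and 25 over both. In the amyloid cohort 22 of the 147 that are not members had that p (15%), against 9.49% of the genes of other chromosomes. In the non-amyloid cohort the shares were 4.76% and 4.48%, and over both cohorts 13.6% and 7.36%. Class II genes, Psmb8 and the microglia marker Aif1 are among the 147, so position and gene role cannot be told apart here.

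Nearer to Trem2, within 5 Mb of its start, 5 of 121 genes were called in the amyloid cohort, 4 in the non-amyloid cohort and 11 over both. From 5 to 10 Mb these counts were 1, 1 and 2 of 82, and from 10 to 15 Mb, the range of the H2 genes, they were 0, 0 and 0 of 197. From 15 to 20 Mb they were 0, 0 and 0 of 108, and beyond 20 Mb 2, 0 and 3 of 477. On other chromosomes 8, 2 and 19 of 20268 were called. At an unadjusted p under 0.05 by edgeR, the genes beyond 20 Mb had shares of 12.4%, 5.24% and 12.8%. From 15 to 20 Mb the share was 3.7% in each. A raised share in the amyloid cohort and over both was thus not particular to the H2 range. Counts per gene do not give the H2 haplotype of these mice, which was not analysed here.

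**Figure D3:**
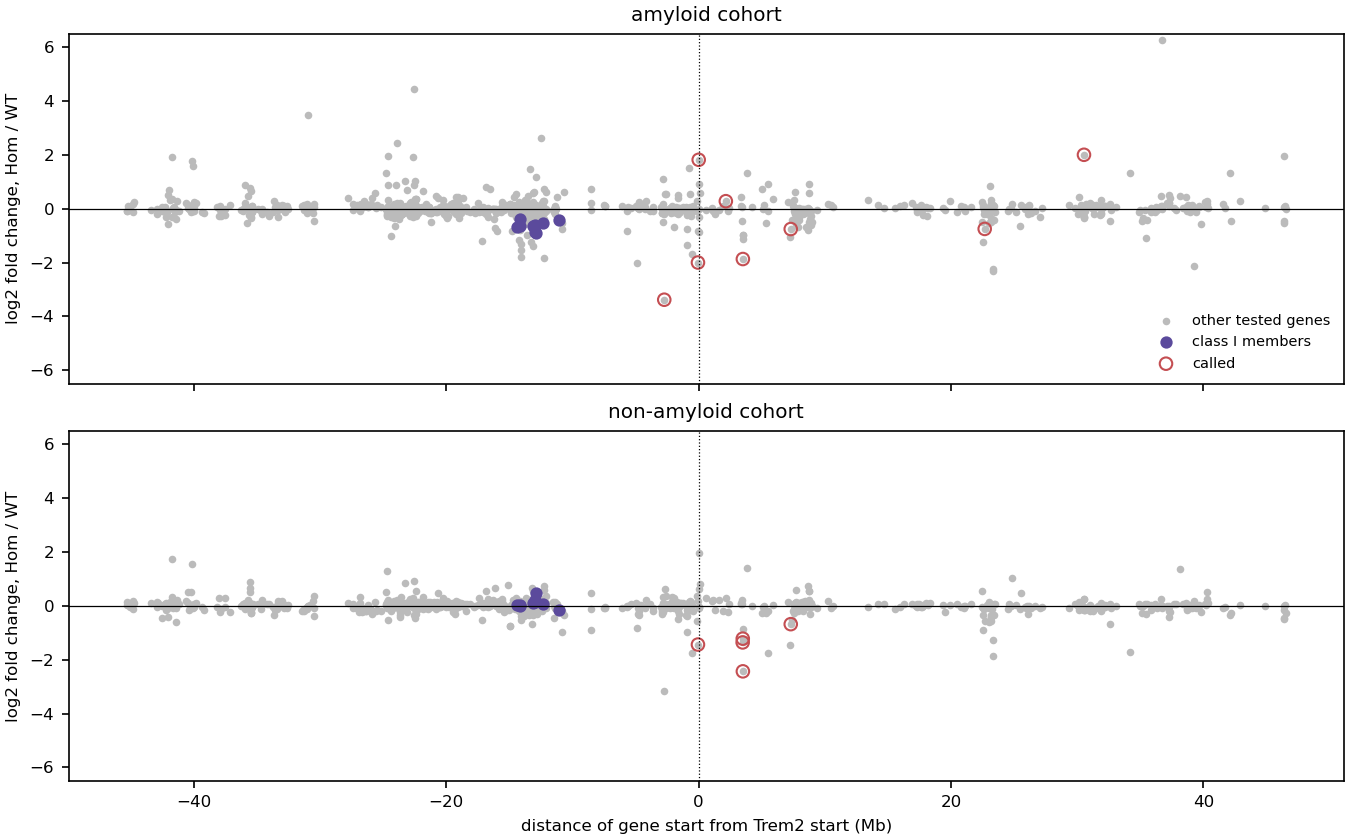
Log2 fold change of Hom against WT mice (vertical axes) for every tested gene of chromosome 17 by the distance of its start from that of Trem2 in Mb (horizontal axis), in the amyloid cohort (upper panel) and the non-amyloid cohort (lower panel). The class I genes, 11.1 to 14.4 Mb away, lie below 0 in the upper panel and around 0 in the lower panel, and the ringed called genes include none of them.

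Females and males were compared within each cohort. In the amyloid cohort females had the higher estimate for 10 of 10 genes with genotype in the fit (median log2 fold change 0.57), 6 of them at an unadjusted p under 0.05 where 6% of all genes had that p and were higher. edgeR called 0 of the 10, where 0.202% of all genes were called higher, and limma-voom also called 0, with 5 at an unadjusted p under 0.05. DESeq2 called 3, where it called 1.17% of the 20008 genes to which it gave an adjusted p higher: B2m (0.54, adjusted p = 0.0208), H2-D1 (0.61, adjusted p = 0.0351) and H2-Q4 (0.80, adjusted p = 0.0352). B2m stood at 251 ± 92.6 CPM in the 5 amyloid WT females and 164 ± 37.3 in the 5 males, and at 165 ± 40.8 in Hom females and 119 ± 9.66 in Hom males. By edgeR its log2 fold change was 0.55 (95% interval 0.26 to 0.83, adjusted p = 0.110), and 0.42 without mouse 32, which is a female.

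Tap2 and H2-T23 had the smallest sex estimates in the amyloid cohort, 0.10 and 0.22, and without mouse 32 they were −0.02 and 0.05. In the non-amyloid cohort 0 of the 10 were called higher in females, where 0.0518% of all genes were. The estimates there ran from −0.08 for Tap2 to 0.44 for H2-Q6, and 0 of the 10 had an unadjusted p under 0.05 by edgeR, DESeq2 or limma-voom.

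The other genes of the pathway were taken from lists set by known role. For every list below, the share of all genes called higher with amyloid was 6.62% in WT and 5.71% in Hom mice. In the peptide loading complex and its trimming enzymes, 3 of 9 were called higher with amyloid in WT mice and 1 of 9 in Hom mice. Tapbp, the bridge between the transporter and the heavy chain, rose from 16.6 to 23.6 CPM in WT mice (log2 fold change 0.51, adjusted p = 1.24e-04) and stood at 17.1 and 19.1 CPM in Hom mice (0.16, adjusted p = 0.327). Erap1, the aminopeptidase that trims peptides in the endoplasmic reticulum, rose in both, by 0.38 (adjusted p = 7.52e-04) and 0.27 (adjusted p = 0.0338). Tapbpl rose in WT mice by 0.30 (adjusted p = 0.0213). The general chaperones of the complex did not pass in WT mice, with 0.22 for Calr (adjusted p = 0.117), 0.09 for Canx (0.392) and 0.16 for Pdia3 (0.274).

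Of 8 genes of the immunoproteasome and its activators, 4 were called higher with amyloid in WT mice and 1 in Hom mice. Psmb8 and Psmb9, catalytic subunits that replace those of the standard proteasome, lie next to Tap1 and Tap2. Psmb8 rose from 2.21 to 6.67 CPM in WT mice (log2 fold change 1.59, adjusted p = 1.47e-08) and from 2.09 to 3.82 in Hom mice (0.87, adjusted p = 0.00172). Psmb9 rose from 0.959 to 2.57 CPM in WT mice (1.42, adjusted p = 6.50e-06) and stood at 1.04 and 1.51 in Hom mice (0.53, adjusted p = 0.139). The third such subunit, Psmb10, gave −0.04 in WT mice (adjusted p = 0.945), and the activator Psme2b rose by 0.46 (adjusted p = 0.00243) while its relatives Psme1 and Psme2 gave 0.13 and 0.18 without a call.

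Among 25 regulators of the pathway 9 were called higher with amyloid in WT mice and 1, Irf8, in Hom mice. With 5.71% of all genes called in Hom mice, the list does not stand out there. Nlrc5, the class I transactivator, rose from 0.881 to 3.29 CPM in WT mice (1.90, adjusted p = 6.48e-06) and stood at 0.861 and 1.304 in Hom mice (0.60, adjusted p = 0.222). Irf8, a factor of the myeloid lineage, rose from 3.93 to 13.4 CPM in WT mice (1.77, adjusted p = 8.56e-14) and from 3.93 to 7.95 in Hom mice (1.02, adjusted p = 2.99e-07). Irf7 (1.89, adjusted p = 1.08e-06), Irf9 (0.85, adjusted p = 2.17e-07) and Irf1 (0.60, adjusted p = 7.29e-05), all of the interferon response, rose in WT mice. Rfx5, a factor shared with class II genes, gave −0.13 (adjusted p = 0.135).

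Of 17 other class I and class I-like genes tested out of 35 listed, 5 were called higher with amyloid in WT mice and 5 in Hom mice. H2-T24 rose in both, by 1.06 (adjusted p = 3.05e-04) and 0.65 (adjusted p = 0.0494), and the Hom call was lost in 4 alternatives. Mr1, which presents vitamin metabolites, rose by 0.37 (adjusted p = 0.0167) and 0.44 (adjusted p = 0.0045). Hfe, a class I-like regulator of iron uptake, rose by 0.71 (adjusted p = 5.36e-08) and 0.37 (adjusted p = 0.0048). Within the amyloid cohort, edgeR called 0 genes of these 4 lists between Hom and WT mice, with 2 of 9, 5 of 8, 11 of 25 and 4 of 17 at an unadjusted p under 0.05. The medians there were −0.12 for the loading genes, −0.23 for the immunoproteasome, −0.12 for the regulators and −0.12 for the other class I genes. Psmb8 gave −0.80 (adjusted p = 0.118), Nlrc5 −1.33 (adjusted p = 0.0974) and Irf8 −0.75 (adjusted p = 0.0554). All of these values include mouse 32 and were not taken without it.

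Of 12 genes listed for class I receptors and the cells that carry them, 7 passed the filter on low counts. Of these, 2 were called higher with amyloid in WT mice (Cd8a and Klrb1c) and 3 in Hom mice (these and Cd8b1). The estimates were above 0 for 5 of the 7 in each genotype, and ran from −0.71 to 3.45 in WT and from −1.07 to 4.31 in Hom mice. Cd8a, the co-receptor of cytotoxic T cells, rose with amyloid from 0.0260 to 0.213 CPM in WT mice (log2 fold change 2.96, adjusted p = 1.16e-04) and from 0.0264 to 0.159 in Hom mice (2.49, adjusted p = 0.00238). Klrb1c, of natural killer cells, rose from 0.0207 to 0.254 CPM in WT mice (3.45, adjusted p = 1.72e-06) and from 0.0221 to 0.106 in Hom mice (2.20, adjusted p = 0.00489). These levels are far under those of the class I genes. Of 14 T and natural killer cell markers 7 passed the filter on low counts, and Cd3d, Cd2, Nkg7, Gzma, Gzmb, Prf1 and Ncr1 did not. With amyloid, 3 of the 7 were called higher in WT mice (Cd3e, Cd3g and Cd8a) and 1, Cd4, lower. In Hom mice 2 were called higher (Cd3g and Cd8a) and Cd4 lower. The summed level of the 7, to which Cd4 contributes, had a median of 30.3 CPM in non-amyloid WT and 28.9 in non-amyloid Hom mice. It was 20.6 in amyloid WT and 22.3 in amyloid Hom mice.

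Microglia markers moved with the class I genes, and their part in the result was not tested. Of 8 astrocyte markers, 2 (Gfap and Aqp4) were called higher with amyloid in WT mice and in Hom mice. Of 9 neuron, 7 oligodendrocyte and 5 erythroid markers, 0 were called with amyloid in WT mice. In Hom mice 1 of these, Mobp of oligodendrocytes, was called higher. All 13 microglia markers were called higher with amyloid in WT mice and 12 of 13 in Hom mice. Their summed level ran from 406 CPM over a median of 504.5 to 564.0 in non-amyloid WT mice and from 453 over 476.5 to 535 in non-amyloid Hom mice. It ran from 818 over 1215 to 1828 CPM in amyloid WT mice and from 643 over 821 to 1118 in amyloid Hom mice. In the amyloid cohort all 13 had a lower mean in Hom than in WT mice, 12 at an unadjusted p under 0.05 and 0 called by edgeR, with a median log2 fold change of −0.56 beside the −0.63 of the class I genes. The 10 markers of plaque-associated microglia had a median of −0.89 with 1 called, Gpnmb. Of all genes, 5.77% had an unadjusted p under 0.05 by edgeR and were lower in Hom mice. All these medians include mouse 32. Without it the class I median was −0.36, and those of the marker lists were not taken, so the medians cannot be matched.

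Endothelial markers, of the other cell type rich in class I, were nearly level, with median sums of 230 CPM in non-amyloid WT, 239.8 in non-amyloid Hom, 233 in amyloid WT and 235 in amyloid Hom mice. Of these 10 markers, 2 (Cldn5 and Kdr) were called higher with amyloid in WT mice and 0 in Hom mice. All 21 interferon response genes tested were called higher with amyloid in WT mice and 8 of them in Hom mice. Their summed level had medians of 84.0 and 82.1 CPM in non-amyloid WT and Hom mice and of 154 and 106 in amyloid WT and Hom mice, and mouse 32 stood at 491. Of 9 class II genes, 8 and 4 were called higher, and mouse 32 again had the highest sum, 294.5 CPM, against a median of 46.2 in its group. Between amyloid Hom and WT mice all 21 interferon response genes had a lower Hom mean, 20 at an unadjusted p under 0.05 and 0 called by edgeR, with a median log2 fold change of −0.87. All 9 class II genes did so too, 8 at that p and 0 called, with a median of −1.15. Both medians include mouse 32 and were not taken without it. The next highest amyloid WT mouse, 12, had sums of 259 CPM for the interferon response genes and 57.4 for class II.

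**Figure D4:**
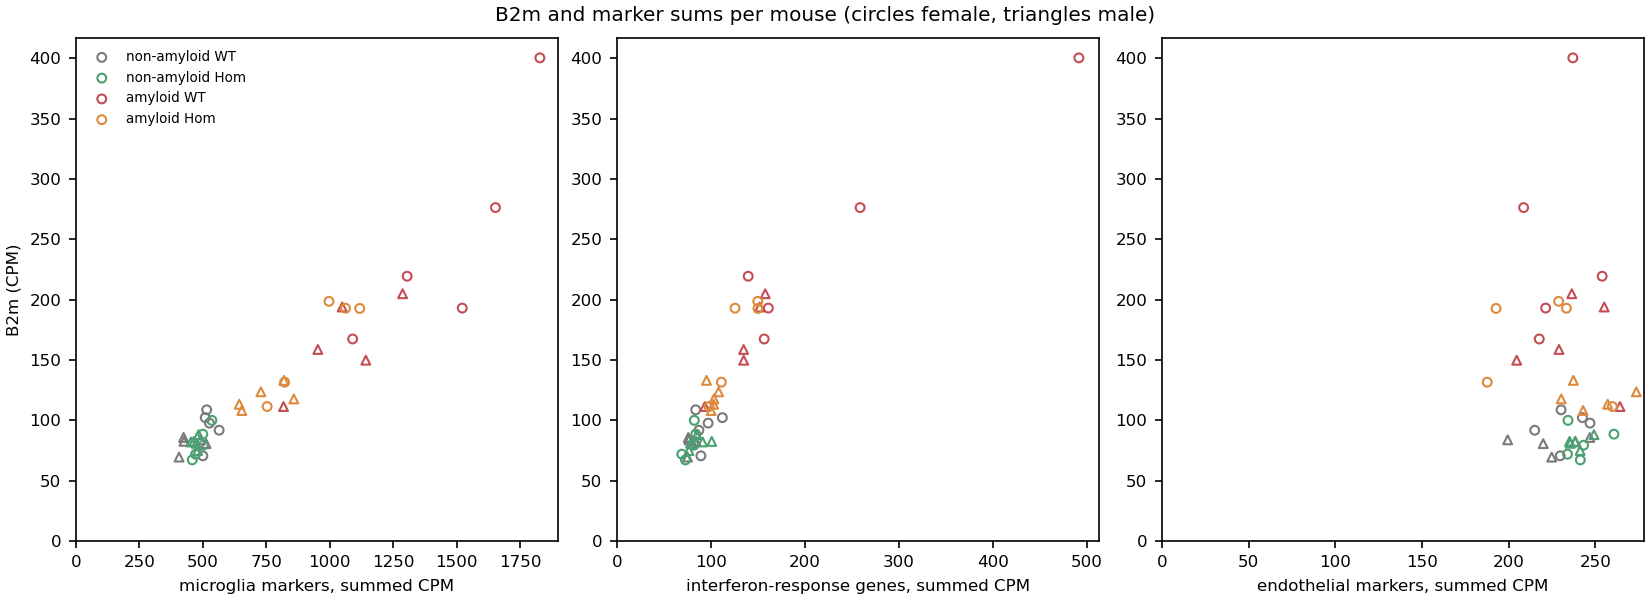
B2m CPM of each mouse (vertical axis) against the summed CPM of microglia markers, interferon response genes and endothelial markers (horizontal axes), with females as circles, males as triangles and groups by colour. B2m is higher where the microglia sum is higher, with mouse 32 at the far end at 400.3 CPM, whereas the endothelial sum lies between 188 and 274 CPM in every group.

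To see which genes followed B2m from mouse to mouse within groups, log2 CPM values had the means of group and sex removed. Over the 40 libraries the genes outside the 10 with the highest Pearson correlations included Ctsh (0.86), Trim30a (0.84), Ctss (0.84), Lair1 (0.83), Mpeg1 (0.82), Ly86 (0.82) and I830012O16Rik (0.81). Ctsh and Ctss are lysosomal proteases. The points share the libraries and their composition. Among the other 9 class I genes the closest was H2-K1 (0.69, rank 68 of all genes), followed by H2-Q4 (0.64) and H2-Q6 (0.62), and the least close were H2-T23 (0.24) and Tap2 (0.09).

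Within the 20 amyloid mice H2-K1 followed B2m with r = 0.78 and rho = 0.66 (permutation p = 1e-04 and 0.0022, adjusted over 9 genes 5.8e-04 and 0.011, two-sided). Without mice 32 and 13, which lay farthest from the median of B2m, r was 0.59. H2-Q4 (r = 0.77, rho = 0.62), H2-M3 (0.70 and 0.61), H2-Q6 (0.68 and 0.63), H2-D1 (0.68 and 0.51) and H2-Q7 (0.65 and 0.54) also had adjusted permutation p-values of at most 0.0027 for r and 0.033 for rho. For these 5 r was 0.44 to 0.55 without the same mice. The relation of Tap1 (r = 0.60, adjusted permutation p = 0.012, rho = 0.41, adjusted permutation p = 0.094) rested on those mice, since r was 0.15 without them, and so did what relation H2-T23 had (r = 0.42, 0.05 without them, rho = 0.19). Tap2 gave r = 0.30 and rho = 0.03. In the 20 non-amyloid mice the highest r was 0.52 for H2-Q6 (rho = 0.43, adjusted permutation p = 0.16 and 0.31), and no gene had an adjusted permutation p under 0.16 for r or under 0.31 for rho.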

How the data were processed

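The authors extracted RNA from cortex, made poly-A libraries and counted paired-end reads per gene. The study's methods name TopHat with Bowtie and featureCounts, while the submitters' processing notes name STAR 2.5.2b, featureCounts 1.5.1 and edgeR. Which pair made the table is not given in the sources used here, and the aligner can shift reads between similar heavy chains. The deposited values are whole-number counts per gene on mm10, without normalization. Groups came from the labels, which name no batch and no shared replicate numbers.

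Genes reaching 10 counts in 4 or more libraries were fitted with edgeR 4.0.16 (TMM, quasi-likelihood) in R 4.3.3, per cohort for genotype and for sex, and over all 40 libraries with 4 groups for the other comparisons. P-values were adjusted by the Benjamini-Hochberg method over all 21253 genes. Calls needed an adjusted p under 0.05 together with a log2 fold change beyond 0.25 in size. CPM values are scaled by TMM. Intervals are estimate ± 1.96 standard errors. Correlations used log2 CPM (prior count 2) with 100000 permutations. Alternatives used DESeq2 1.42.0, limma 3.58.1, RLE factors, no filter, sex as a covariate, 1 fit of all libraries and each library left out. The test was tried on simulated data. Promoters came from RefSeq, transcripts from GENCODE.

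All 10 genes were named in every comparison, together with the called genes of each list, at most 6 by p, and list genes named without a call were picked after their values were seen. Some genes that this rule covers are not reported here. Genes and lists were chosen with earlier results of these data known.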

Additional observations from a re-analysis of the deposited data

Results flagged for a closer look

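In 40 sets of values (10 genes in 4 groups of 10 mice) the highest mouse stood apart from the rest in 7, by a gap to its nearest neighbour beyond Dixon's 95% critical share of the group's range. The rate of 1 in 20 belongs to independent sets of normal values. These 40 sets share mice and their CPM values need not be normal, so the 7 cannot be read against that rate. Amyloid WT mouse 32, a female, accounted for 4 of them: H2-Q6 at 6.12 CPM (next mouse 3.36), H2-T23 at 40.4 CPM (next 26.1), H2-M3 at 9.86 CPM (next 6.08) and Tap1 at 15.9 CPM (next 5.59). Non-amyloid WT mouse 38, a female, stood at 1.81 CPM for H2-Q6 (next 1.08) and at 0.788 CPM for H2-Q7 (next 0.413). Amyloid Hom mouse 3, a female, stood at 3.97 CPM for Tap1 (next 3.41). The cause of these values was not tested.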

How the results depend on the processing

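The 10 WT calls with amyloid were also made with DESeq2, RLE factors and sex as a covariate, and 9 of them with limma-voom (H2-Q6 lost, 1.05, adjusted p = 0.0969) and without the filter (Tap2 lost, 0.47, adjusted p = 0.0593). Leaving out 1 mouse gave 7 to 10 calls. In Hom mice the count went from 1 to 3 with limma-voom (B2m, H2-D1 and Tap1) and was 1 to 3 with a mouse left out. For Hom against WT in the amyloid cohort, where 0 of the 10 and 16 genes in all were called, DESeq2 called 303 genes, limma-voom 25, no filter 8, sex as a covariate 251, the same without mouse 19 200, and all libraries in 1 fit 612 with 4 of the 10 among them. Leaving out 1 mouse gave 6 to 204 (without mouse 13) and 0 of the 10. For females against males in that cohort (51 genes) the counts were 257, 113 and 26 with DESeq2, limma-voom and no filter, and 241 in 1 fit, with 3 of the 10 by DESeq2, 4 in 1 fit, and 19 to 116 genes with a mouse left out. For the interaction (0 genes) DESeq2 called 38, sex as a covariate 12, the same without mouse 19 6, and leaving out 1 mouse gave 0 to 22 (without mouse 13). For genotype over both cohorts (35 genes) these were 103, 82, 62 and 23 (without mouse 32) to 107, with 23 by limma-voom. In the non-amyloid cohort DESeq2 called 11 genes in place of 7 for genotype (4 to 8 with a mouse left out) and 48 in place of 26 for sex. The cause of these shifts was not tested.

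Of the values of single genes under the alternatives that kept all mice or left out mouse 19, 1246 kept direction and side of the threshold, 27 lost the call, 13 gained it and 4 changed sign. With limma-voom the last were Tap1 (−0.01) and Tap2 (0.06) for non-amyloid genotype, H2-K1 (−0.01) for non-amyloid sex and H2-Q7 (0.02) for genotype over both cohorts. With a mouse left out, ranges crossed 0 for non-amyloid genotype in H2-K1 (−0.01 to 0.07), Tap1 (−0.05 to 0.08) and Tap2 (−0.06 to 0.07), for non-amyloid sex in H2-K1 (−0.01 to 0.07), H2-M3 (−0.05 to 0.02) and Tap1 (−0.04 to 0.10), for amyloid sex in Tap2 (−0.02 to 0.17), and reached 0 for H2-Q7 with amyloid in Hom mice (0 to 0.32). No paired analysis was possible because the mouse numbers are unique to each mouse. Counting error is largest for H2-Q6 and H2-Q7.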
